A study of Mus musculus with 6 samples.

Results

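The small leucine-rich proteoglycans are a family of secreted matrix proteins, and 10 of their genes were followed here in embryonic mouse lung: Dcn, Lum, Bgn, Fmod, Ogn, Omd, Kera, Prelp, Aspn and Epyc. They are 10 of the 22180 genes measured. The family was chosen by the mutant against control differences of Dcn and Lum, which were higher in mutants on these same arrays, so the differences of those 2 genes are given as a description without a test, and the other 8 members were taken by family name. Each gene is read from the probe set that carries its symbol alone, and from the brightest where there were several. All 10 members were found.

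RNA came from whole lung buds dissected at E12.5, 6 arrays in all, and the series asks what Fzd2, a receptor for Wnt ligands, does as the lung epithelium develops. The control group (n = 3) had the genotype Shh cre/+, in which 1 of the Shh alleles drives Cre recombinase. The mutant group (n = 3) had the genotype Fzd2Flox/Flox; Shh cre/+ and so carried the same Cre allele, with both Fzd2 copies floxed. Shh marks the airway epithelium, so Cre is aimed at that layer, while most genes of this family are known from connective tissue cells. Every array held both compartments, and in whole tissue a smaller number of cells of one type and less RNA per cell cannot be told apart. The labels call the arrays biological replicates, and the sources used here do not say whether each was 1 lung or several pooled.

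Proteins of this family have a core of leucine-rich repeats that is closed at both ends by disulfide-bonded caps, and most carry chondroitin, dermatan or keratan sulfate chains. They bind collagen and control how fibrils form and how thick they grow, and several hold growth factors such as TGF-beta in the matrix. Class I members are decorin (Dcn), biglycan (Bgn) and asporin (Aspn). Class II members are lumican (Lum), fibromodulin (Fmod), PRELP (Prelp), keratocan (Kera) and osteomodulin (Omd), and class III members are epiphycan (Epyc) and mimecan (Ogn). Decorin and lumican are made mainly by fibroblasts and related mesenchymal cells.

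Values are log2 expression values made with RMA, on which a step of 1 is a 2-fold change, and array medians lay between 7.29 and 7.32. Fzd2 itself read 9.57 to 9.82 in controls and 9.07 to 9.67 in mutants, so the groups overlapped for the targeted gene, and the sources used here do not say whether its probes lie in the floxed part. Lung markers were present, among them Nkx2-1 at 10.05 to 10.57 and Foxf1 at 12.03 to 12.20. Some arrays stood apart in genes of other tissues. Control replicate 1 had a mean of 9.46 over 13 genes of adult small intestine against 6.15 to 6.34 on the others, mutant replicate 1 had 9.25 over 9 heart muscle genes against 8.10 to 8.17, and mutant replicate 2 had 10.15 over 9 fat genes against 6.92 to 7.49. Control replicate 2 had no Y-linked signal (mean of 3 genes 5.63 against 10.39 to 10.53) and was high in Xist (12.07 against at most 7.005). Mutant replicate 3 was highest over 8 liver genes (mean 7.09 against 6.57 to 6.81). Member values with 1 array left out are given where they move by over 1.5 times.

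Mutant means were above control means for 8 of the 10 members and below them for 2. The higher ones include Dcn and Lum, which were picked for that direction. They also include Kera, Aspn and Epyc, whose means lay under the limit for dim probe sets given below. The median log2 difference (mutant minus control, as throughout) was 0.23 against 0.01 over all genes, and 0.15 over the 8 members other than Dcn and Lum. In 5 members (Dcn, Lum, Ogn, Aspn, Epyc) all 3 mutant arrays lay above all 3 controls, and in 1 (Fmod) all lay below. Such separation was seen in 19.4% of all genes, 10.6% higher and 8.83% lower. Among the 8 members not used in picking the family it was seen in 4 (Fmod, Ogn, Aspn, Epyc). Of these, Aspn and Epyc had means under the limit for dim probe sets given below. Fmod was separate on the brighter of its probe sets and not on the dimmer, and it differed in the opposite direction to Ogn. At an adjusted p under 0.05 over all genes limma called 0.0631% of genes, 0.018% higher and 0.0451% lower. Dcn was among these, and nothing is read from that, since its difference led to the choice of the family. With any 1 array left out, limma called 0 of all genes while 1797 to 3084 genes had an unadjusted p under 0.05. Of the 8 members other than Dcn and Lum, limma called 0, and 3 had an unadjusted p under 0.05, of which 2 were higher (Ogn, Epyc) and 1 was lower (Fmod), against 7.34% of all genes higher and 5.15% lower.

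**Figure D1:**
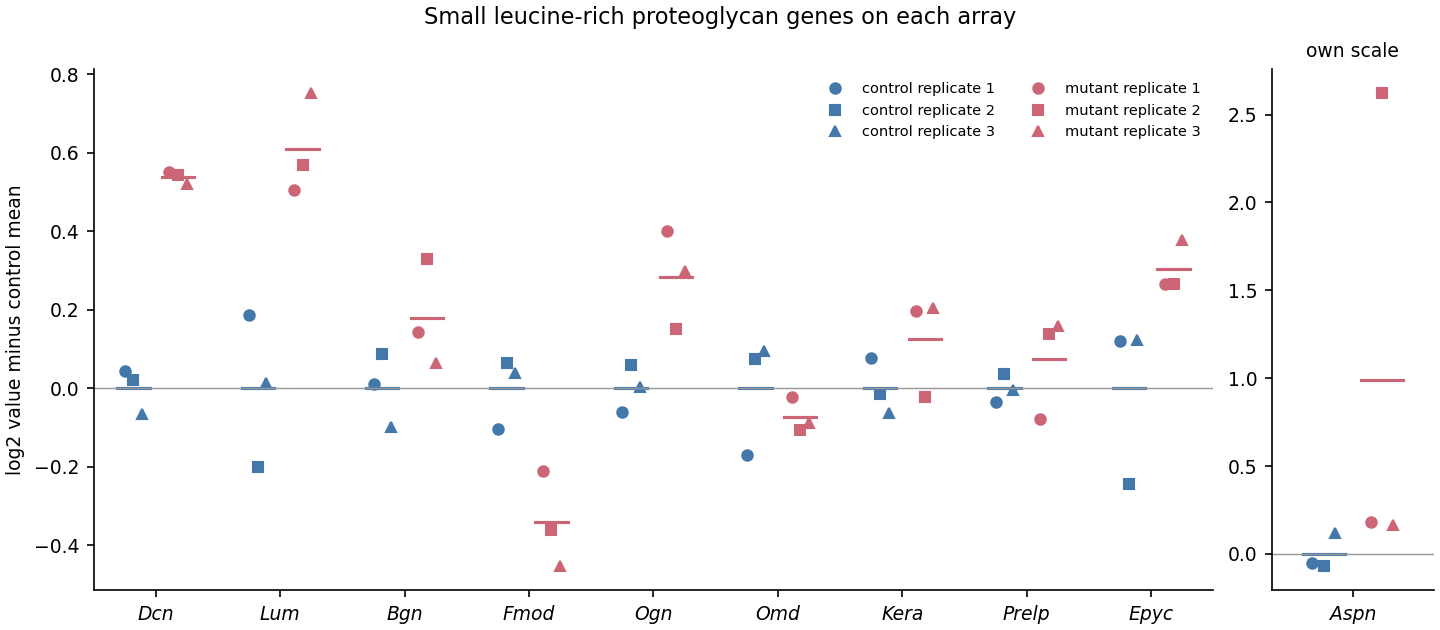
Log2 value of each member minus its control mean (vertical axis) on each of the 6 arrays, with bars at the group means and Aspn on a scale of its own. The Dcn and Lum points of the mutants lie above those of the controls, the Fmod points lie below, and 1 Aspn point, mutant replicate 2, stands alone.

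The platform gave no detection calls, so 1105 olfactory receptor genes, which act in the nose, served as a reference for dim probe sets. Of these, 95% had a mean under 7.004, with a median of 4.87. The means of 6 members (Dcn, Lum, Bgn, Fmod, Ogn, Prelp) were above that limit, and those of 4 (Omd, Kera, Aspn, Epyc) were not. Brightness also depends on the probes, so the limit says only that those 4 values cannot be set apart from such background, and it ranks no gene against another. It leaves the Aspn value on mutant replicate 2 (7.96) above the limit and all other values of these 4 genes below it.

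Decorin, the class I member that binds collagen fibrils and TGF-beta, had the smallest SE of the 10 members. Dcn read 10.79, 10.77 and 10.68 in the controls and 11.30, 11.29 and 11.27 in the mutants, each in the order of replicates 1 to 3, as below. The groups were separate, and the mutant arrays lay within a narrow band. The means were 10.75 ± 0.06 (SD, n = 3) and 11.29 ± 0.02 (SD, n = 3), a log2 difference of 0.54 (SE 0.05) or 1.45-fold. The value ran from 0.51 to 0.56 when each array was left out in turn.

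Biglycan, the close relative of decorin, did not separate the groups. Bgn read 11.70, 11.78 and 11.59 in controls and 11.83, 12.02 and 11.75 in mutants, where mutant replicate 2 was highest and mutant replicate 3 stood between control values. The log2 difference was 0.18 (SE 0.08, 95% interval -0.01 to 0.37, limma adjusted p = 0.424). Without mutant replicate 2 it was 0.10. A dimmer Bgn probe set gave 0.07 (SE 0.07), with 8.67 to 8.76 in controls and 8.66 to 8.90 in mutants.

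Asporin, the class I member without glycosaminoglycan chains, read 5.29, 5.27 and 5.46 in controls and 5.53, 7.96 and 5.51 in mutants. Mutant replicate 2 alone set its mean, and the other mutant arrays lay just above the highest control. The log2 difference was 0.99 (SE 0.60, 95% interval -0.40 to 2.38, limma adjusted p = 0.521), and it was 0.18 (SE 0.07, adjusted p = 0.479) without mutant replicate 2. On that same array the fat marker list had its high mean, with Fabp4 at 12.92 against at most 8.52 elsewhere and Adipoq at 9.22 against at most 6.39. All 9 measured fat genes had higher means in mutants, with list means of 6.92 to 7.49 in controls and 7.09 to 10.15 in mutants. The part of these genes in the Aspn value was not tested.

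**Figure D2:**
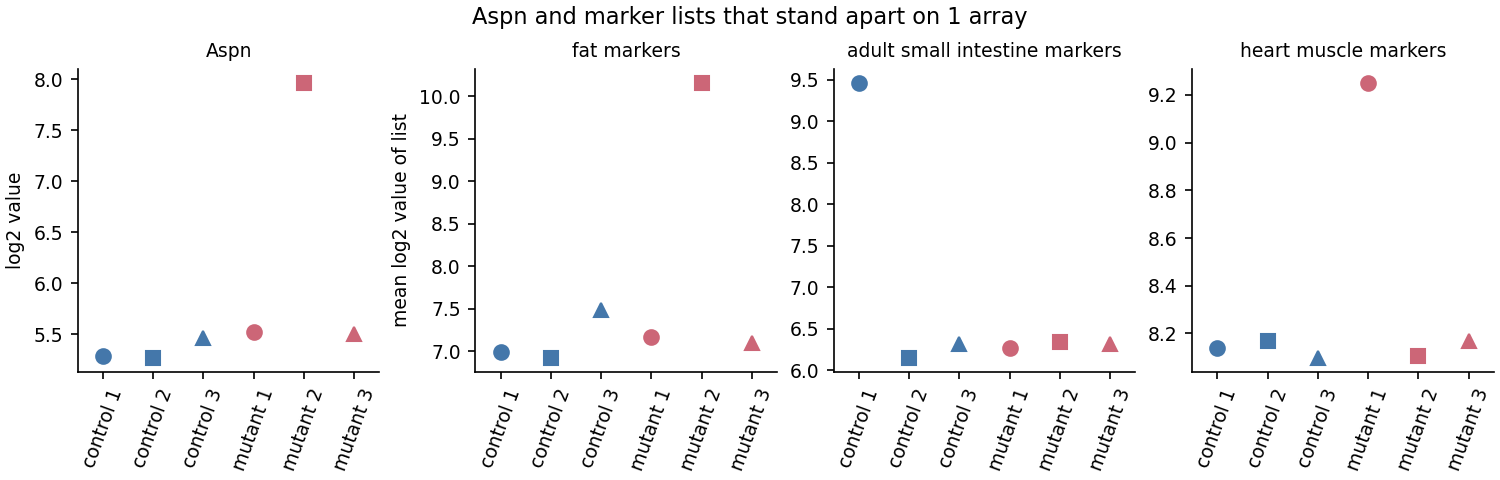
Log2 value of Aspn (left panel) and mean log2 value of the marker lists of fat, adult small intestine and heart muscle on each array, in the order control and mutant replicates 1 to 3. Aspn (7.96) and the fat list (10.15) are both high on mutant replicate 2, while the intestine list is high on control replicate 1 and the heart list on mutant replicate 1.

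Lumican, a class II keratan sulfate proteoglycan that limits the thickness of collagen fibrils, had the greatest difference among the members above the dim limit. Lum read 9.16, 8.77 and 8.98 in controls and 9.47, 9.54 and 9.72 in mutants. The lowest mutant was above the highest control, with wider groups than those of Dcn. The means were 8.97 ± 0.19 (SD, n = 3) and 9.58 ± 0.13 (SD, n = 3), a log2 difference of 0.61 (SE 0.11) or 1.52-fold. It was 0.51 without control replicate 2, the lowest control, and 0.70 without control replicate 1. Control replicate 2 was also the array without Y-linked signal, and with the Y-linked mean as a covariate the log2 difference of Lum was 0.51. The Y-linked mean was low on that array alone, so this fit is close to leaving it out and is no separate check. The part of sex in the Lum difference was not tested.

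Fibromodulin, which shares its collagen binding site with lumican, lay on the opposite side. Fmod read 10.04, 10.21 and 10.18 in controls and 9.93, 9.78 and 9.69 in mutants, and all mutant arrays were below all controls. The log2 difference was -0.34 (SE 0.08, 95% interval -0.52 to -0.16), 78.9% of the control level, with limma adjusted p = 0.198, so it did not pass over all genes. A dimmer Fmod probe set did not show it, with a log2 difference of -0.01 (SE 0.09). Its values, 7.16 to 7.24 in controls and 7.05 to 7.39 in mutants, lay close above the dim limit of 7.004. The mean of both probe sets gave -0.18 (SE 0.07). The sources used here do not place either probe set within the gene.

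The other class II members (Prelp, Kera, Omd) had overlapping groups. PRELP, which anchors basement membrane to connective tissue, read 9.01, 9.08 and 9.04 in controls and 8.96, 9.18 and 9.20 in mutants (log2 difference 0.07, SE 0.07, 95% interval -0.09 to 0.24, limma adjusted p = 0.688). Mutant replicate 1 was the lowest of all 6 arrays for Prelp, and without it the log2 difference was 0.15, against 0.04 without mutant replicate 2 and 0.03 without mutant replicate 3. A dimmer Prelp probe set gave 0.07 as well, but lay under the dim limit, with means of 6.74 in controls and 6.81 in mutants. Keratocan, known from the corneal stroma, had Kera values of 6.62 to 6.76 in controls and 6.66 to 6.89 in mutants, with overlapping groups (log2 difference 0.13, SE 0.08, 95% interval -0.05 to 0.30, adjusted p = 0.517), and 0.20 without mutant replicate 2. Osteomodulin, known from bone, had Omd values of 4.59 to 4.86 in controls and 4.65 to 4.74 in mutants, with the mutants inside the control range (-0.07, SE 0.08, 95% interval -0.25 to 0.11, adjusted p = 0.717). Leaving out control replicate 1, 2 or 3 gave Omd differences of -0.16, -0.04 and -0.03. Kera and Omd were both under the dim limit.

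The class III gene Ogn encodes mimecan, a matrix protein also called osteoglycin. Ogn read 9.75, 9.87 and 9.81 in controls and 10.21, 9.96 and 10.11 in mutants, with no overlap and with mutant replicate 2 nearest to the controls. The log2 difference was 0.28 (SE 0.07, 95% interval 0.12 to 0.45), 1.22-fold, and limma gave adjusted p = 0.237. Leaving out mutant replicate 1 gave 0.23, and leaving out mutant replicate 2 gave 0.35. Epiphycan, known from growth plate cartilage, had Epyc values of 5.96, 5.60 and 5.97 in controls and 6.11, 6.11 and 6.22 in mutants, separate but under the dim limit. Its log2 difference was 0.30 (SE 0.10, 95% interval 0.07 to 0.54, limma adjusted p = 0.320), and 0.18 without control replicate 2, the lowest array for both Epyc and Lum. With the Y-linked mean, which was low on that array alone, as a covariate the Epyc difference was 0.19. Of 15 cartilage markers, 2 lay higher and 3 lower with separate groups, against 10.6% and 8.83% of all genes. The list means were 7.71 to 7.73 in controls and 7.70 to 7.76 in mutants.

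Ogn and Fmod had the smallest p among the members not used in picking the family, with differences of opposite sign, and the 250 bases before their starts are shown for that reason (RefSeq, GRCm38.p6). Both lie on the plus strand, Ogn at chr13:49607765-49608014 and Fmod at chr1:134037004-134037253. Capitals mark matches, on either strand, to any of 4 short motifs: the TATA box core TATAAA, the TCF/LEF core CTTTGA of Wnt-responsive genes, the AP-1 site TGACTCA and the GC box GGGCGG.
Ogn: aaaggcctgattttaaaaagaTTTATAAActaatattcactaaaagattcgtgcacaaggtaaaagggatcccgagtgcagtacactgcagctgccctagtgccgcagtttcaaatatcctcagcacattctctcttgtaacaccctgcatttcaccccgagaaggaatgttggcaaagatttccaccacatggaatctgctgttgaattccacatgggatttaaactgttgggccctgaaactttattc
Fmod: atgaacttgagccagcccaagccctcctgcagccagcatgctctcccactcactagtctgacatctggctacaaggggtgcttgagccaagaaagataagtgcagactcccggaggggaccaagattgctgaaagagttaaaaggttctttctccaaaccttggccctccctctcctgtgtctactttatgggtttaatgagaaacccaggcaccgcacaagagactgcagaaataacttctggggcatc
The match in Ogn is the TATA box core read on both strands, which overlap, and Fmod holds none of the 4 motifs in this window. The promoter table held 9 windows of 8 members. TATAAA was found in 2 of these (Aspn, Ogn) and in 12.4% of all 32851 windows of this length, CTTTGA in 4 (both of Epyc, and those of Bgn and Omd) and in 13.8%, GGGCGG in 1 (Bgn) and in 32.7%, and TGACTCA in 0 and in 4.46%. These are matches of letters and not binding sites. Dcn and Lum have no entry in that table.

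Of the members, 9 sit in 3 groups of neighbours on the reference assembly. Dcn, Lum, Kera and Epyc are consecutive protein-coding genes on chromosome 10, and their log2 differences were 0.54, 0.61, 0.13 and 0.30. The measured genes on either side, Btg1, Ccer1 and Atp2b1, had differences of 0.03 to 0.07 with overlapping groups. Dcn and Lum were picked for their differences, so nothing is read from their distance to these genes. Ecm2, a related leucine-rich repeat gene, Aspn, Omd and Ogn are consecutive on chromosome 13, with differences of -0.01, 0.99, -0.07 and 0.28, and their 4 flanking genes had -0.13 to -0.06. Optc, Prelp and Fmod are consecutive on chromosome 1, with 0.13, 0.07 and -0.34, between flanking genes at -0.21 to 0.29, of which Lax1, Btg2 and Chit1 had separate groups too. Bgn lies apart from the others on chromosome X, between genes at -0.04 to 0.10. Each group thus held members with separate and with overlapping values, and whether neighbours share a direction was not tested.

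**Figure D3:**
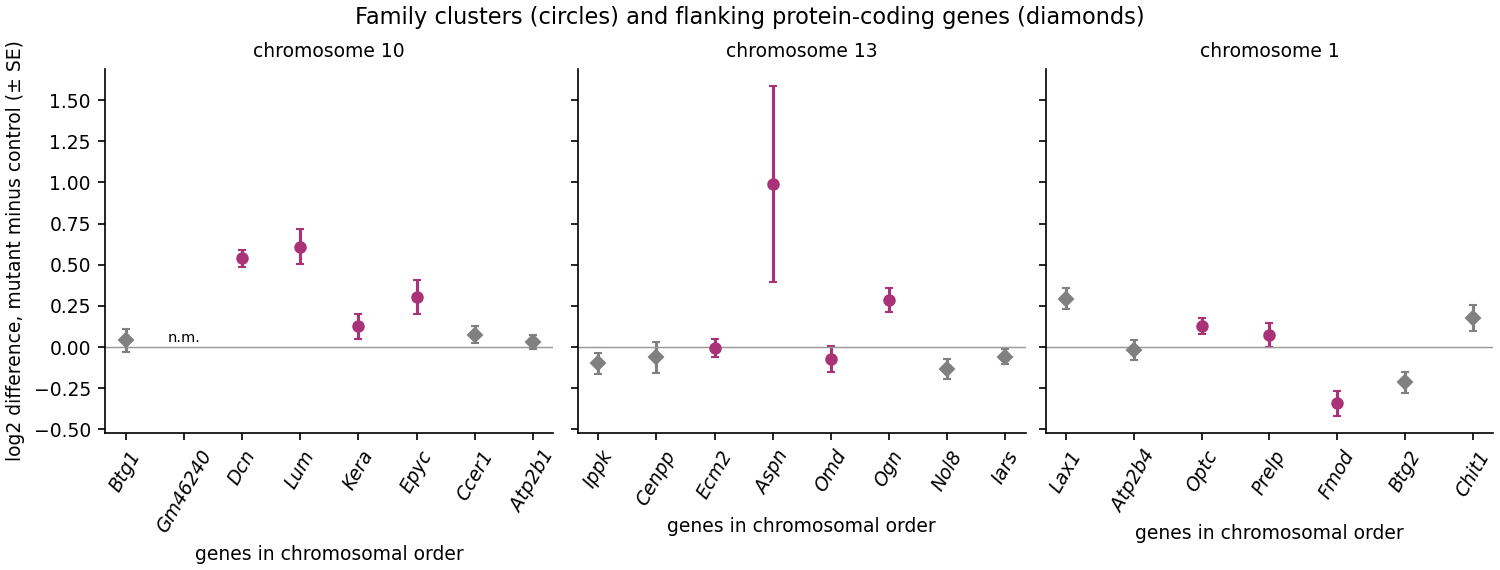
Log2 difference, mutant minus control, with limma's SE (vertical axis) of the family genes in 3 chromosomal groups (circles) and of the 2 nearest protein-coding genes on each side (diamonds), in chromosomal order; n.m. marks a gene that was not measured under its symbol. Dcn and Lum stand at 0.54 and 0.61 between flanking genes near 0, and Fmod stands at -0.34. The differences of Dcn and Lum led to the choice of the family, so nothing is read from their distance to the flanking genes.

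Other leucine-rich repeat matrix genes related to the family (Optc, Ecm2, Chad, Nyx, Podn, Podnl1, Chadl) had small differences. Of 7 measured, limma called 0 over all genes, with a median of 0.13. At an unadjusted p under 0.05, 3 were higher and 0 lower, against 7.34% and 5.15% of all genes. These 3 had separate groups: Podnl1 (0.25, SE 0.07, adjusted p = 0.281), the podocan gene Podn (0.19, SE 0.06) and the opticin gene Optc (0.13, SE 0.05). Podnl1 lay under the dim limit, with means of 6.76 in controls and 7.01 in mutants. Podn read 7.43 to 7.63 in controls and 7.65 to 7.74 in mutants. Over all genes, 10.6% were separate and higher and 8.83% separate and lower. These shares, and those at the unadjusted p, are the background for the counts of the lists below as well.

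Genes that build and sulfate the sugar chains of these proteins had no shared direction. Of 31 measured, limma called 0, with 1 higher and 1 lower at an unadjusted p under 0.05, 16 higher and 15 lower means, and a median of 0.0010. The smallest p were those of the chondroitin sulfotransferase gene Chst13 (0.20, SE 0.06, adjusted p = 0.266), the uronyl sulfotransferase gene Ust (-0.22, SE 0.09, adjusted p = 0.388) and the galactosyltransferase gene B4galt1 (0.12, SE 0.05, adjusted p = 0.416). Dse and Dsel, which make dermatan sulfate from chondroitin sulfate, as found on decorin, both had a difference of 0.06, and Xylt1 and Xylt2, which start the chain, had -0.05 and -0.03.

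Among collagens that these proteins bind, 11 of 14 had higher means, with a median of 0.14, and limma called 0, with 5 higher and 1 lower at an unadjusted p under 0.05. By p the first were the cartilage collagen gene Col2a1 (-0.23, SE 0.07, adjusted p = 0.301), Col3a1 (0.16, SE 0.05, adjusted p = 0.314) and Col5a3 (0.22, SE 0.07, adjusted p = 0.315). Col3a1 read 11.07 to 11.16 in controls and 11.25 to 11.32 in mutants. The collagen VI genes Col6a1 (0.37), Col6a2 (0.27) and Col6a3 (0.44), which encode a ligand of decorin and biglycan, had their highest value on mutant replicate 2, the array that was also highest for Bgn and Aspn, and they are named after their values were seen. That array also carried the fat signal. Without it, an alternative chosen after seeing the data, their log2 differences were 0.17, 0.13 and 0.21, and the part of the fat genes in them was not tested. The median of the list was 0.12 to 0.17 when each array was left out.

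Growth factors, receptors and proteases that act with the family gave 23 higher means of 32 and a median of 0.09, and limma called 0, with 5 higher and 0 lower at an unadjusted p under 0.05. The smallest p was that of Adamts5, an aggrecanase that cleaves proteoglycan core proteins, with 7.94, 8.20 and 8.10 in controls and 8.52, 8.63 and 8.42 in mutants. Its groups were separate, and its log2 difference of 0.44 (SE 0.08) had limma adjusted p = 0.148. The related protease gene Adamts4 (0.28, SE 0.08, adjusted p = 0.290) and the neuregulin receptor gene Erbb4 (0.41, SE 0.12, adjusted p = 0.281) were also separate. TGF-beta genes, whose proteins decorin binds, had differences of -0.02 (Tgfb1), -0.06 (Tgfb2) and 0.02 (Tgfb3), and Bmp1, which trims the propeptide of biglycan, had -0.02 (SE 0.06). Proteoglycans and link proteins outside the family had a median of 0.02, with 17 higher and 15 lower means of 32, and limma called 0, with 7 higher and 3 lower at an unadjusted p under 0.05. First by p were the link protein gene Hapln1 (-0.30, SE 0.08, adjusted p = 0.226), the glypican gene Gpc2 (-0.16, SE 0.05, adjusted p = 0.283) and the lubricin gene Prg4 (0.27, SE 0.09, adjusted p = 0.320), which lay under the dim limit at 5.08 in controls and 5.35 in mutants.

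**Figure D4:**
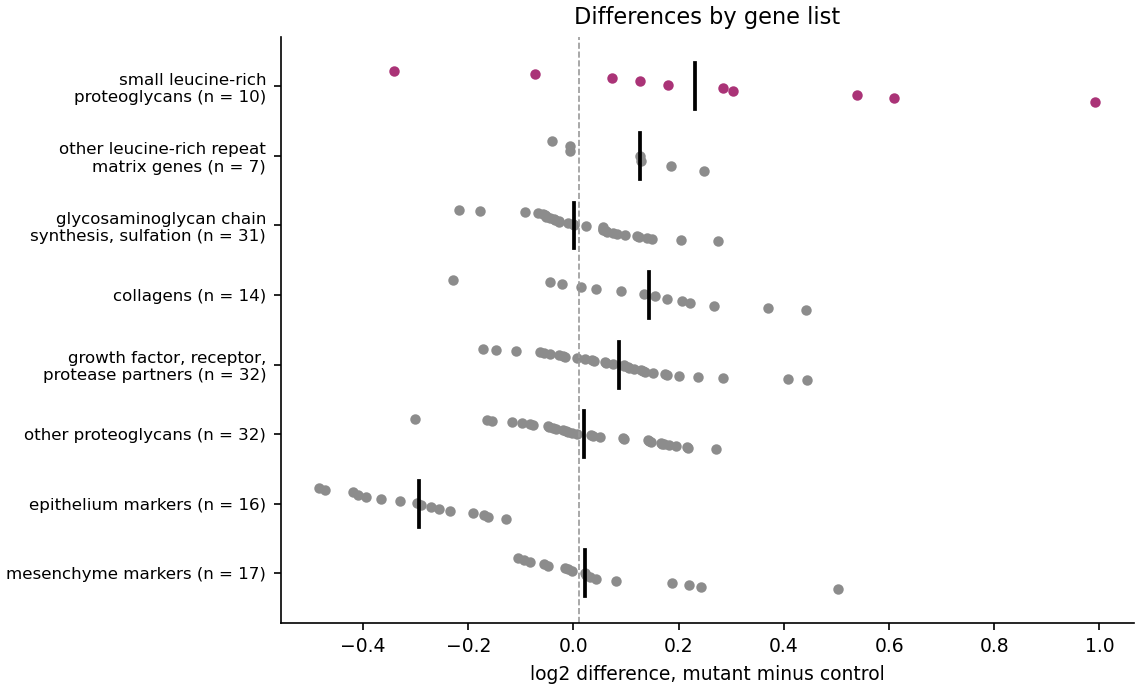
Log2 difference, mutant minus control (horizontal axis), of each gene of the family, of the 5 related lists and of epithelium and mesenchyme markers; bars mark list medians and the dashed line marks the median of all genes (0.01). The family median (0.23) lies between members at -0.34 (Fmod) and 0.99 (Aspn), while the epithelium markers lie to the left of 0. The family median includes Dcn and Lum, whose differences led to the choice of the family, and it is 0.15 without them.

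Marker lists of the lung compartments give the setting of these values. All 16 epithelium markers had lower means in mutants, with list means of 9.65 to 9.78 in controls and 9.36 to 9.50 in mutants. Limma called 1 (Esrp1) lower. At an unadjusted p under 0.05, 12 were lower and 0 higher, against 5.15% of all genes lower. In 13 the groups were separate and lower, against 8.83% of all genes. Of 17 mesenchyme markers, 9 had higher and 8 had lower means, with list means of 9.92 to 9.99 in controls and 9.97 to 10.07 in mutants, and limma called 0, with 3 higher at an unadjusted p under 0.05. These were the transcription factor genes Prrx1 (0.50, SE 0.10, adjusted p = 0.175) and Twist1 (0.24, SE 0.10, adjusted p = 0.370) and the PDGF receptor gene Pdgfra (0.19, SE 0.05, adjusted p = 0.285), of which Prrx1 and Pdgfra had separate groups. Fgf10, the growth factor that drives airway branching, had 0.22 with overlapping groups, and the lung mesenchyme transcription factors Tbx2 (0.03), Tbx3 (0.02), Tbx4 (-0.05), Tbx5 (-0.09) and Foxf1 (-0.06) overlapped as well. Of 8 smooth muscle markers 6 had lower means, with list means of 9.77 to 9.88 in controls and 9.55 to 9.73 in mutants. Of these, 4 (Acta2, Actg2, Myh11, Myocd) were lower with separate groups and an unadjusted p under 0.05, and 0 were higher by either measure. Of 9 mesothelium markers 7 had higher means, and 3 were higher and 0 lower with separate groups. Limma called 0 in both lists. Tendon and bone markers had a median of -0.02, skeletal muscle markers of 0.06, endothelium markers of -0.03 and liver markers of 0.12. Of the 8 liver markers 7 had higher means, with list means of 6.57 to 6.72 in controls and 6.73 to 7.09 in mutants, and Afp, made by fetal liver and yolk sac, read 7.29 to 7.50 in controls and 7.94, 8.10 and 9.53 in mutants (1.14, SE 0.37, limma adjusted p = 0.314). Of 12 leukocyte markers 9 had higher means, with list means of 8.17 to 8.18 in controls and 8.24 to 8.39 in mutants. The part of any of these lists in the member values was not tested.

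By likeness of pattern over the 6 arrays (the root mean square difference of log2 values after each gene is centred on its mean), the genes nearest to Dcn were Ccng1 (0.07), the semaphorin gene Sema3d (0.08), Megf10 (0.09), the R-spondin gene Rspo3 (0.09) and Eda2r (0.09). Nearest to Lum were Ccdc43 (0.09), Chodl (0.12), Megf10 (0.12), Slc17a7 (0.12) and Ccng1 (0.12). Eda2r, Chodl and Slc17a7 lay under the dim limit. Megf10 and Ccng1 stand in both lists, and each of these genes had separate groups, as a pattern near Dcn or Lum requires. Within the family Lum was the member nearest to Dcn (0.14), followed by Ogn (0.16), Epyc (0.19) and Bgn (0.20), and Fmod (0.45) and Aspn (0.85) were farthest. The nearness of Dcn and Lum follows in part from the choice of the family, since both were picked for higher values in mutants.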

How the data were processed

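Mouse lung RNA (100 ng per array) was measured on 6 arrays, 3 per group. The authors deposited log2 values, and the submitters' processing notes name oligo and RMA; the sources used here give no versions, build or filters. RMA forces the arrays to a common distribution, so changes are relative to the bulk of genes and are compressed at both ends. Of 41345 probe sets, 23521 carried 1 symbol in the platform annotation, and they gave 22180 genes, the brightest probe set per gene. The test was limma's lmFit and eBayes (version 3.58.1, R 4.3.3) with no term but group, two-sided, adjusted by Benjamini-Hochberg over all genes, threshold 0.05. Its p-values set the group difference against the spread between these arrays, with each gene's variance drawn towards that of all genes. Named were the 10 members, in each related list the genes called or otherwise the 3 with the smallest p (other genes stand by role), and the 5 genes nearest to Dcn and to Lum above the 30th percentile of mean expression, without predicted transcripts. Members and lists were chosen with earlier results of these data known. The olfactory receptor reference was chosen after seeing the data. Some genes stand in several lists. On simulated data over 22180 genes, 80% and 96% of genes changed by 0.5 and 1 (log2) were recovered, with 4 of 180 calls false. The simulated noise was independent and normal, with no array standing apart in genes of other tissues or in Y-linked genes. These shares check the code and do not give the share of changed genes that the real arrays could recover. Gene order, chromosomes and promoters are from RefSeq (GRCm38.p6). Alternatives were other normalizations, filters, probe set summaries, variance models, a replicate block, a Y-linked covariate and arrays left out. Figures were drawn with matplotlib 3.10.9.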

Additional observations from a re-analysis of the deposited data

How the results depend on the processing

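Each member kept its direction under every alternative that could give it a value, and limma called 0 of the 8 members other than Dcn and Lum, and 0 genes of the related lists, under each of them. The number of genes called over all genes was 14; it was 8 when arrays were quantile normalized again, 25 and 50 when only genes above the 30th or 50th percentile were tested, 46 with a trended and robust variance model, and 0 with the Y-linked mean as a covariate, without control replicate 1 and mutant replicate 2 together, and without any 1 array (0 to 0, while 1797 to 3084 had an unadjusted p under 0.05). The log2 difference of Dcn, a description here, was 0.51 to 0.56 under each of those that gave 0. With the replicate number as a block 0 genes were called and the log2 difference of Dcn stayed at 0.54. The correlations of same-numbered deviations were -0.04, -0.06 and 0.07, and 2 of 6 arrays correlated best with their own number. These values show no pairing by number. They cannot exclude one, since single arrays stood apart in genes of other tissues and in Y-linked genes. The median over the 10 members (0.23) was 0.25 after that second normalization, 0.18 above the 30th percentile (7 members) and 0.20 with averaged probe sets. It was 0.20 with the Y-linked covariate, 0.19 without control replicate 1 and mutant replicate 2 together and 0.19 to 0.25 with each array left out. It includes Dcn and Lum, which were picked for their differences. The median without those genes (0.15) was not computed under the alternatives. With each array left out, list medians ran from 0.10 to 0.12 (other leucine-rich repeat genes), -0.0217 to 0.0405 (chain synthesis), 0.12 to 0.17 (collagens), 0.0503 to 0.10 (partners, lowest without mutant replicate 1) and 0.0013 to 0.05 (other proteoglycans). Without control replicate 1 and mutant replicate 2 together they were 0.0355 (chain synthesis), 0.0934 (collagens) and 0.0653 (other proteoglycans); chain synthesis was at 0.0367 with the Y-linked covariate, and other proteoglycans at -0.0207 above the 50th percentile, where no gene of the other leucine-rich repeat list was left. The number of arrays, 3 per group, limits every value, and for Omd, Kera, Aspn and Epyc so does their signal, which lay within the range of olfactory receptor genes.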
